A study of Mus musculus with 36 samples.

Results

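The collagen genes were followed in mouse colon through chemically induced colitis and tumor formation, with and without the interleukin-17 receptor subunit IL-17RC. Members were all genes whose symbol has the form of a collagen chain, and 42 of the 17097 genes on the array qualified, each represented by its brightest probe set. Total RNA from minced colon was hybridized to 36 Affymetrix arrays. The labels give mice an age of 6 to 8 weeks, untreated and day 63 alike, and do not say at which point. Tumor mice may thus have been older at sampling than untreated mice, which cannot be told apart from the other differences between them. The groups were IL-17RC knockout (KO) and wild-type (WT) mice left untreated (4 arrays each), KO and WT at day 7 (4 each), KO and WT at day 15 (4 each), and colon labelled tumor from KO and WT at day 63 (6 each). The labels of all mice except the untreated ones give the carcinogen azoxymethane (AOM) followed by dextran sulfate sodium (DSS) in the drinking water. The course they state is 3 cycles of 5 days of 3% DSS and 14 days of plain water, written alike for day 7, day 15 and tumor. It is read here as the planned course and not as what each mouse had received when sampled. The labels do not say from which event the days are counted, nor how many cycles the day 7 and day 15 mice had begun. The labels name no strain, no design of the knockout allele, and neither whether the tumor samples were cut free of the colon wall nor whether each array is 1 animal, so the p-values given here reflect only how far these arrays differ, which may be technical.

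Collagens are triple-helical proteins of the extracellular matrix. Fibrillar collagens give tissue its tensile strength, type IV collagens form the network of basement membranes, type VI forms beaded filaments around cells, and the FACIT collagens sit on the surface of fibrils made by others. In the gut wall they are made mainly by fibroblasts and smooth muscle, with epithelium and endothelium adding basement membrane chains, and they are remodelled when mucosa is injured and heals. DSS damages the colon epithelium, and AOM with DSS is a standard route to colon tumors in mice.

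Of the 42 members, 24 had a mean intensity of 16 or more over all arrays (the medians of the arrays lay between 14 and 16) and 18 were dimmer. The brighter ones were 6 of 11 fibrillar collagens, 6 of 8 basement membrane chains and multiplexins, 4 of 5 beaded filament chains, 4 of 9 FACIT and related genes, 2 of 4 transmembrane collagens, 1 of 3 short-chain collagens and the anchoring fibril gene Col7a1. Because the mean runs over all arrays, a gene can pass through a few of them. Col9a3 passed only through the tumor arrays, and Col17a1 only through arrays with a bright squamous keratin, and both were near background elsewhere. The dim ones were Col1a2, Col2a1, Col11a1, Col11a2, Col24a1, Col4a3, Col4a4, Col6a5, Col8a2, Col10a1, Col9a2, Col12a1, Col19a1, Col20a1, Col22a1, Col13a1, Col25a1 and Col26a1, and no array exceeded 28 for any of them. Col1a2, the second chain of type I collagen, stayed between 8 and 22 on its only named probe set, so its level could not be followed here. An intensity depends on the probes as well as on the transcript, so levels of different genes are not set against each other.

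Array values below are the deposited intensities, and differences are log2 values after quantile normalization with their standard error (SE), tested with limma and adjusted over all genes. Some arrays stood apart before any comparison. Replicate 4 of WT day 15 was the highest of its group for 21 of the 24 brighter members and the highest of all 36 arrays for 15, and replicate 4 of KO day 15 was the highest of its group for 19. Their fibroblast marker sums were 10650 in KO and 13632 in WT, and S100a8, a neutrophil gene, was 6239 in KO and 5585 in WT. Replicate 2 of KO day 15, replicate 3 of WT day 15 and replicate 3 of WT untreated were each the lowest of their group for 20 members. Replicate 2 of WT day 7 was the lowest for 18, replicate 2 of KO tumor for 17 and replicate 2 of KO untreated for 16. Replicate 6 of WT tumor and replicate 3 of KO day 7 were each the highest of their group for 16. Below, the 2 arrays that stand apart are replicate 4 of KO day 15 and of WT day 15. The low day 15 arrays were left out only 1 at a time. Krt5, a keratin of squamous epithelium, exceeded 100 in 7 arrays (2 WT untreated, 2 KO day 7, 2 WT day 7 and 1 KO tumor). Il17rc itself was 7 to 15 in the KO arrays and 76 to 515 in the WT arrays, except that replicates 1 and 2 labelled KO day 7 had 331 and 44. Markers of intestinal epithelium were bright on every array, with summed intensities between 25355 and 38202.

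**Figure D1:**
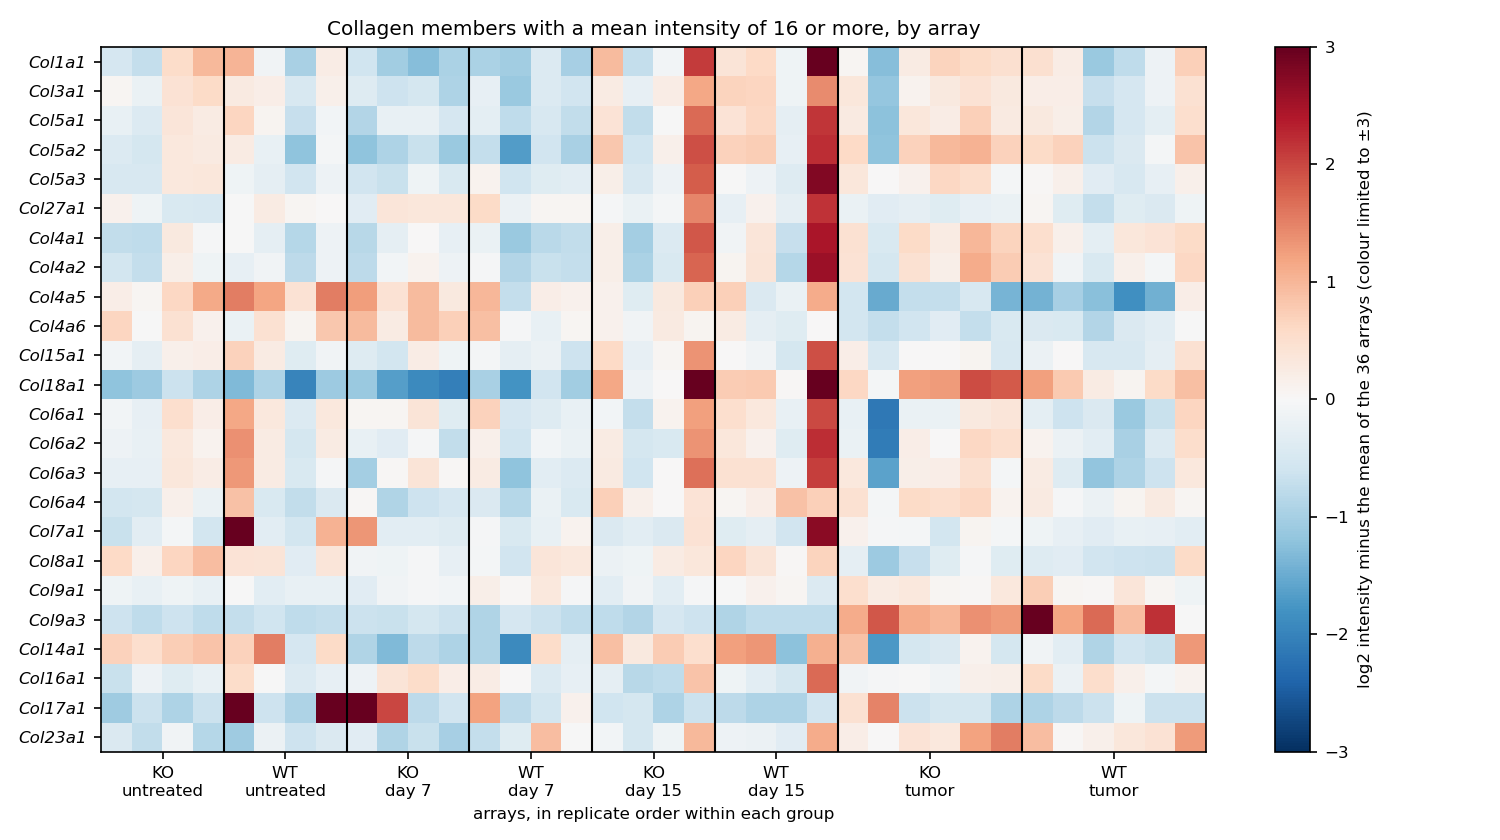
Each row is 1 of the 24 brighter collagen genes, ordered by class, and each column is 1 array, with KO left of WT within each stage; the colour is the log2 intensity minus the gene's mean over the 36 arrays. The fourth arrays of KO day 15 and WT day 15 are high for most members, and Col9a3 is high in the tumor columns.

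In tumors, a small set of collagens was higher than in untreated colon and another small set lower, in both genotypes, while Col1a1, Col3a1 and the type V chains did not pass the test. In KO tumors against untreated KO colon 5 members rose and 3 fell at an adjusted p under 0.05, 8 of 42 members beside 20.8% of all genes (10.8% rose and 9.92% fell). In WT tumors against untreated WT colon 4 rose and 5 fell, 21.4% of members beside 22.8% of all genes (12.6% rose and 10.2% fell). Normalized values of the groups did not overlap for 8 members in KO and 4 in WT, beside 20.3% and 14.7% of all genes. The median log2 difference over the 42 members was -0.02 in either genotype, beside 0.01 over all genes in KO and 0.02 in WT. Smooth muscle markers moved in the same samples: 7 of 8 fell in KO tumors and 8 of 8 in WT tumors, with summed intensities of 2045 to 15749 in KO tumors and 18052 to 19406 in untreated KO colon, and of 6137 to 18285 in WT tumors and 21157 to 26080 in untreated WT colon. Leukocyte markers were higher for 2 of 6 in KO tumors and 4 of 6 in WT tumors, with sums of 5420 to 7664 in KO tumors and 1165 to 2740 in untreated KO colon, and of 5256 to 8313 in WT tumors and 538 to 2074 in untreated WT colon. Endothelial markers were higher for 3 of 9 in KO tumors (303 to 744, against 261 to 325 in untreated KO colon) and 0 of 9 in WT tumors (305 to 622, against 226 to 377 in untreated WT colon). In KO tumors 1 of 4 pericyte markers was higher (432 to 2809, against 528 to 787 in untreated KO colon), and in WT tumors 3 of 12 squamous markers were lower (260 to 604, against 132 to 39752 in untreated WT colon). Of 9 fibroblast markers 0 were called in KO tumors (1610 to 7325, against 4674 to 5308 in untreated KO colon). In WT tumors 1 of 9 was lower (2674 to 9202, against 3654 to 6754 in untreated WT colon). Of 8 intestinal epithelium markers, 2 were higher and 3 lower in KO tumors, and 2 higher and 0 lower in WT tumors. The part of these markers in the collagen differences was not tested. In bulk tissue, fewer cells of a type and less RNA per cell cannot be told apart.

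At day 15 against day 7, 5 of the 11 fibrillar collagens rose, together with Col6a4, Col14a1 and Col18a1, and Col4a6 fell. The fibrillar Col5a1 and Col5a3 were not called without replicate 4 of both day 15 groups (adjusted p = 0.106 and 0.401). With both genotypes averaged, 8 members rose and 1 fell at day 15 against day 7, 21.4% beside 28.2% of all genes (13.4% rose and 14.8% fell), and the median over the 42 members was 0.06 beside -0.03 over all genes. From day 15 to tumors, 2 members rose and 7 fell, 21.4% beside 31.8% of all genes (17.9% rose and 13.9% fell), with a median of -0.09 beside 0.01. The normalized values did not overlap for 2 members at day 15 against day 7 (2.98% of all genes) and for 1 from day 15 to tumors (2.59%). Both of these comparisons use the day 15 arrays, and the comparisons with untreated colon share the untreated arrays of their genotype. At day 15 against day 7, 8 of 9 endothelial, 5 of 6 leukocyte and 2 of 9 fibroblast markers rose and 7 of 8 smooth muscle markers fell. Summed fibroblast intensities were 3590 to 10650 at KO day 15 against 3628 to 5731 at KO day 7, and 3527 to 13632 at WT day 15 against 2364 to 6058 at WT day 7. Summed endothelial intensities were 265 to 1096 at KO day 15 against 178 to 257 at KO day 7, and 240 to 1634 at WT day 15 against 177 to 335 at WT day 7. Of 12 squamous markers 5 fell and of 4 pericyte markers 2 rose. In tumors against day 15, 5 of 8 smooth muscle, 3 of 9 fibroblast and 3 of 5 enteric glia and nerve markers fell. Summed smooth muscle intensities were 2045 to 15749 in KO tumors against 9365 to 17167 at KO day 15, and 6137 to 18285 in WT tumors against 8691 to 17849 at WT day 15. Summed fibroblast intensities were 1610 to 7325 in KO tumors and 2674 to 9202 in WT tumors. Summed glia and nerve intensities were 59 to 97 in KO tumors against 77 to 148 at KO day 15, and 63 to 87 in WT tumors against 80 to 211 at WT day 15. The part of these cell types in the collagen differences was not tested.

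Early in the protocol few members passed. At day 7 against untreated, 1 member fell in KO (12.2% of all genes were called) and 0 were called in WT (1.66% of all genes). At day 15 against untreated, 0 were called in KO (0.813% of all genes) and 1 rose in WT (3.38% of all genes). At an unadjusted p under 0.05 limma gave 5 and 3 members at day 7, and 4 and 7 members at day 15, in KO and in WT. Over all 17097 genes it gave 4196 and 2176 at day 7, and 2804 and 2982 at day 15.

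**Figure D2:**
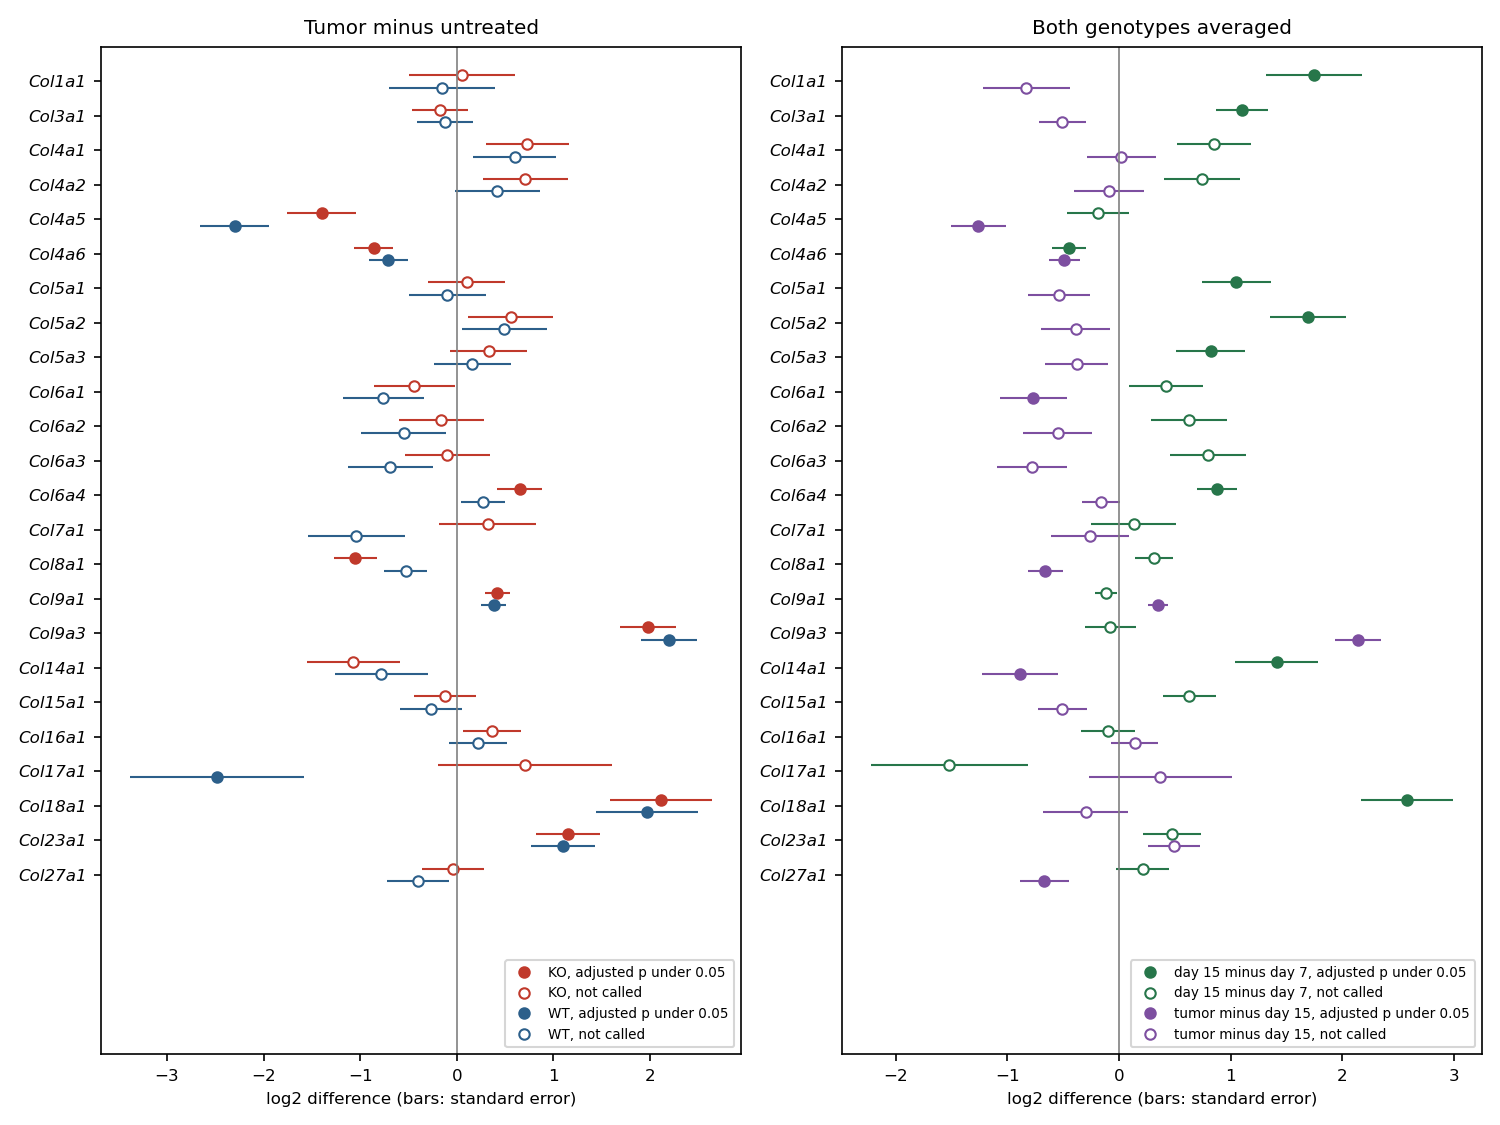
Log2 differences with standard errors for the 24 brighter collagen genes: on the left tumor minus untreated for KO (upper point) and WT (lower point), on the right day 15 minus day 7 (upper) and tumor minus day 15 (lower) with genotypes averaged. Filled points have an adjusted p under 0.05; Col9a3 and Col18a1 lie near 2 in tumors and Col4a5 below -1.

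Among type I, III and V collagens, the fibril formers of the gut wall, Col1a1, Col3a1 and Col5a2 rose at day 15 against day 7, also without the 2 arrays that stand apart. Col5a1 and Col5a3 rose with those arrays and were not called without both, and none of the 5 was called at day 7 against untreated colon. Col1a1 (chr11:94936224-94953042, GRCm38.p6), the major chain of type I collagen, had 46, 38, 94 and 132 in untreated KO colon and 132, 65, 31 and 81 in untreated WT colon, 39, 30, 27 and 32 at KO day 7 and 31, 30, 40 and 30 at WT day 7, and 140, 39, 65 and 296 at KO day 15 and 90, 91, 54 and 833 at WT day 15. Apart from 1 array of 39 in KO, the day 15 arrays lay above every day 7 array of either genotype, and the 2 arrays that stand apart were the highest. The difference of day 15 minus day 7 was 1.75 ± 0.43 on the log2 scale (SE, adjusted p = 0.0026), and 1.08 without those 2 arrays (adjusted p = 0.0207). Tumors ranged from 25 to 102 with a median of 86.0 in KO and from 31 to 109 with a median of 66.5 in WT, overlapping untreated colon (adjusted p = 0.972 in KO and 0.888 in WT).

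Col3a1 (chr1:45311538-45349706), which encodes the type III chain of distensible tissues, had 4445, 3117, 4244 and 8078 at KO day 15 against 2648, 2254, 2447 and 1839 at KO day 7. WT gave 5680, 5453, 3381 and 8847 at day 15 against 2970, 1674, 2789 and 2446 at day 7. Every day 15 array lay above every day 7 array in both genotypes. This was 1.10 ± 0.23 on the log2 scale (adjusted p = 0.00043) and 0.84 without the 2 arrays that stand apart (adjusted p = 0.00475). Untreated colon had 3829, 3206, 4736 and 5285 in KO and 4327, 4122, 2590 and 4025 in WT. KO day 7 was below all untreated KO arrays but missed the threshold (-0.84 ± 0.32, adjusted p = 0.0837), and WT day 7 gave -0.63 ± 0.32 (adjusted p = 0.414). Its second probe set rose as well from day 7 to day 15 (1.95 ± 0.38, adjusted p = 0.00027).

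Col5a2 (chr1:45374331-45503282), a chain of type V collagen, which nucleates fibrils and limits their width, lies next to Col3a1, its annotated start 24625 bases from the end of Col3a1. Its intensities were 1215, 447, 739 and 2502 at KO day 15 against 274, 337, 406 and 297 at KO day 7, and 1071, 1096, 568 and 3107 at WT day 15 against 391, 205, 432 and 334 at WT day 7. Groups did not overlap in either genotype, and the difference was 1.69 ± 0.34 (adjusted p = 0.000395), or 1.24 without the 2 arrays that stand apart (adjusted p = 0.00408). Tumors had a median of 1073.5 (288 to 1363) in KO and 805.0 (421 to 1205) in WT, against 657.0 in untreated KO colon and 606.0 in untreated WT colon, and neither difference passed (adjusted p = 0.448 in KO and 0.479 in WT).

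The partner chain Col5a1 gave 1.05 ± 0.31 from day 7 to day 15 (adjusted p = 0.0106), and all 3 of its probe sets were called. Its arrays read 569, 258, 422 and 1416 at KO day 15 against 214, 347, 354 and 287 at KO day 7, and 562, 630, 343 and 1923 at WT day 15 against 328, 245, 283 and 247 at WT day 7. The WT groups did not overlap and the KO groups did. Without the 2 arrays that stand apart the value was 0.58 and the call was lost (adjusted p = 0.106). Col5a3, the third type V chain, was called at 0.82 ± 0.31 (adjusted p = 0.045), but gave 0.45 without replicate 4 of WT day 15 (adjusted p = 0.142), 0.57 without replicate 4 of KO day 15 (adjusted p = 0.147) and 0.20 without both (adjusted p = 0.401). Its second, dimmer probe set gave -0.23 ± 0.10 (adjusted p = 0.0864), the opposite direction. Col27a1, a fibrillar collagen of cartilage, fell by 0.67 ± 0.22 from day 15 to tumors (adjusted p = 0.0218), and gave -0.18 without those 2 arrays (adjusted p = 0.288), where it had 85 in KO and 130 in WT.

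**Figure D3:**
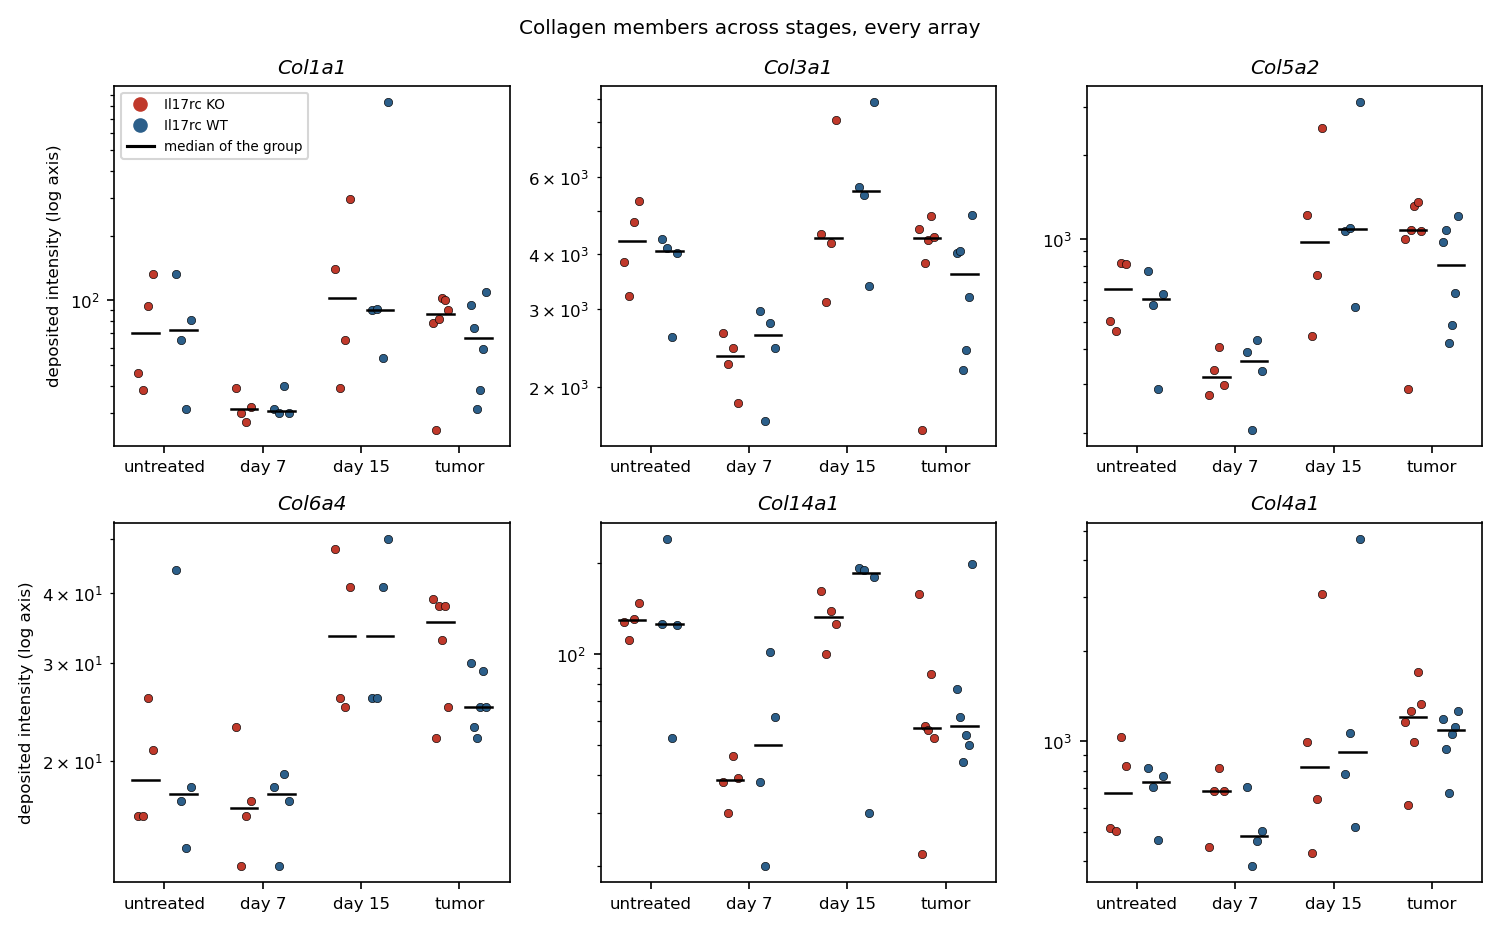
Deposited intensity of 6 collagen genes on every array (log axis), KO in red left of WT in blue at each stage, with the group median as a line. Col3a1 and Col5a2 are lower at day 7 than at day 15 on every array of both genotypes, and the highest point at day 15 is replicate 4 in most panels.

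Among basement membrane collagens in tumors, Col18a1 rose, Col4a5 and Col4a6 fell, and Col4a1 and Col4a2 did not pass. Col18a1 (chr10:77052178-77166530) encodes a heparan sulfate proteoglycan of basement membranes whose end fragment is endostatin, and gave the largest rise from day 7 to day 15 among the members. Intensities were 42, 45, 62 and 53 in untreated KO colon and 38, 56, 23 and 50 in untreated WT colon, 41, 30, 26 and 23 at KO day 7 and 45, 27, 55 and 44 at WT day 7, and 235, 91, 104 and 899 at KO day 15 and 173, 163, 96 and 1454 at WT day 15. Tumors ranged from 97 to 386 with a median of 239.5 in KO and from 109 to 238 with a median of 159.0 in WT. Every day 15 and every tumor array of either genotype lay above every untreated and day 7 array.

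Day 15 minus day 7 was 2.58 ± 0.41 for Col18a1 (5.99-fold, adjusted p = 2.03e-05), and 1.84 without the 2 arrays that stand apart (adjusted p = 1.31e-05). Against untreated colon, day 15 gave 2.0 ± 0.58 in KO (adjusted p = 0.0903) and 2.68 ± 0.58 in WT (adjusted p = 0.00789). The genotype difference in that change was -0.69 ± 0.82 (adjusted p = 0.868). The KO call was reached without replicate 4 of WT day 15 (adjusted p = 0.0219) and without KO day 15 replicate 2 or 3 (adjusted p = 0.0247 and 0.0388), all by the same model. The WT call was lost with only the groups compared (2.67, adjusted p = 0.147), with the title letter as a block (2.32, adjusted p = 0.172) and without the arrays of Krt5 above 100 (2.80, adjusted p = 0.0565). Tumors minus untreated gave 2.11 ± 0.53 in KO (adjusted p = 0.00389) and 1.97 ± 0.53 in WT (adjusted p = 0.00667). A second probe set gave 2.10 ± 0.49 in KO tumors (adjusted p = 0.00269) and 1.40 ± 0.49 in WT tumors (adjusted p = 0.0436).

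The 250 bases before 2 annotated starts of Col18a1 (RefSeq, GRCm38.p6, minus strand) are shown because this gene was called both at day 15 and in tumors. Capitals mark matches, on either strand, to 5 motifs: the letters TATAAA for the TATA box, CCAAT for the box of that name, GGGCGG for the GC box, CTTTGA for the TCF/LEF site and TGANTCA for the AP-1 site. No marked match overlaps another. The first window, chr10:77113706-77113955, holds none of the 5 motifs, and the second, chr10:77166531-77166780, holds 1 CCAAT box and 3 GC boxes.
Col18a1 inner start: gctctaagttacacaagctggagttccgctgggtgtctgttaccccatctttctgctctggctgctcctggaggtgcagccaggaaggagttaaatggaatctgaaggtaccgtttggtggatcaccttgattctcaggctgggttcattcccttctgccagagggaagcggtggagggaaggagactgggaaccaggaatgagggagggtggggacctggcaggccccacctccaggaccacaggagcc
Col18a1 outer start: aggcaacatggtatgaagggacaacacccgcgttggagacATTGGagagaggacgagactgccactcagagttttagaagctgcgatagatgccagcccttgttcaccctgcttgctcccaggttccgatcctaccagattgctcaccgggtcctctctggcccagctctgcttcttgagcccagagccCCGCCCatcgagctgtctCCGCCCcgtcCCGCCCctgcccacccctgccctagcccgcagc
Over all 32851 promoter windows of the mouse table, 12.4% hold the TATA box letters, 33.8% the CCAAT box, 32.7% the GC box, 13.8% the TCF/LEF site and 6.75% the AP-1 site. Among the 36 windows of the 33 members that have one, the numbers with a match were 5, 13, 21, 9 and 1 in the same order of motifs.

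Col4a5 and Col4a6 encode chains that assemble with each other in basement membranes, among them that of smooth muscle, and they lie head to head on the X chromosome, 1275 bases apart by their annotated bounds. Both were lower in tumors. Col4a5 (chrX:141475370-141689236) ranged from 21 to 52 with a median of 39.0 in KO tumors, against 75, 67, 98 and 147 in untreated KO colon. In WT tumors it ranged from 17 to 77 with a median of 26, against 189, 156, 85 and 197 in untreated WT colon. No tumor array reached the lowest untreated array of its genotype. The differences were -1.40 ± 0.36 in KO (adjusted p = 0.00435) and -2.30 ± 0.36 in WT (adjusted p = 1.81e-05), and the genotype difference in the change was 0.90 ± 0.50 (adjusted p = 0.68). A second, dimmer probe set of Col4a5 fell too, by 0.74 ± 0.19 in KO (adjusted p = 0.00606) and by 0.91 ± 0.19 in WT (adjusted p = 0.00095).

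Col4a6 (chrX:141165403-141474095) was near background throughout. It had 9 to 12 with a median of 10 in KO tumors, against 24, 15, 21 and 17 in untreated KO colon, with no overlap. In WT tumors it had 8 to 15 with a median of 11, against 14, 22, 16 and 30 in untreated WT colon, and these groups overlapped. Its fall was called in KO tumors (-0.86 ± 0.20, adjusted p = 0.00158) and in WT tumors (-0.71 ± 0.20, adjusted p = 0.00798), the WT call being lost without WT untreated replicate 4 (-0.54, adjusted p = 0.0628). It also fell by 0.45 ± 0.15 from day 7 to day 15 (adjusted p = 0.0268), a call lost without WT day 7 replicate 1 (-0.32, adjusted p = 0.0855). A second, dimmer probe set was not called in the tumor comparisons with untreated colon (0.03 ± 0.11 in KO and -0.31 ± 0.11 in WT, adjusted p = 0.914 and 0.0501).

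From day 15 to tumors Col4a5 fell by 1.26 ± 0.25 (adjusted p = 0.000227) and Col4a6 by 0.49 ± 0.14 (adjusted p = 0.00653), while their second probe sets gave -0.22 ± 0.14 and -0.08 ± 0.08 (adjusted p = 0.244 and 0.495). The windows before the starts that the RefSeq promoter table gives for them are shown because both neighbours fell in tumors. Each of these starts lies inside the annotated bounds of its gene given above, so each window overlaps those bounds in part. The windows are 250 bases each (GRCm38.p6), Col4a5 on the plus strand at chrX:141475169-141475418 and Col4a6 on the minus strand at chrX:141474077-141474326, with capitals as above.
Col4a5: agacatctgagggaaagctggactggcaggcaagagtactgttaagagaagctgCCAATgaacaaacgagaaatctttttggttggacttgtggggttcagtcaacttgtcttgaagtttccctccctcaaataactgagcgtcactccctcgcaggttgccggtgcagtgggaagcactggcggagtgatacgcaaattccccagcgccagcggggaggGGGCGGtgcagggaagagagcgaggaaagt
Col4a6: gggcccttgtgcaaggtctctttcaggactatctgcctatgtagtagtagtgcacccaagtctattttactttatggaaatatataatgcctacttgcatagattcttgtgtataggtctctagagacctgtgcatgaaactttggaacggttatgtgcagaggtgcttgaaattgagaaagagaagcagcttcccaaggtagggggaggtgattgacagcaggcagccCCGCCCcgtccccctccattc
The Col4a5 window holds 1 CCAAT box and 1 GC box, and the Col4a6 window 1 GC box. Neither holds the letters of the TATA box, TCF/LEF or AP-1 motifs.

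Col4a1 and Col4a2, the ubiquitous chains of the basement membrane network, adjoin each other on chromosome 8. Col4a1 ranged from 614 to 1697 with a median of 1206.5 in KO tumors, against 517, 505, 1033 and 830 in untreated KO colon, and from 673 to 1257 with a median of 1088.5 in WT tumors, against 816, 705, 470 and 765 in untreated WT colon. The groups overlapped (0.73 ± 0.43 in KO and 0.60 ± 0.43 in WT, adjusted p = 0.272 and 0.347). At day 15 it had 996, 428, 644 and 3079 in KO and 781, 1064, 521 and 4691 in WT, against 446, 682, 815 and 684 in KO and 708, 386, 469 and 504 in WT at day 7, a difference of 0.85 ± 0.33 (adjusted p = 0.0551). That difference was called at 0.85 with the replicate block (adjusted p = 0.0244), 0.90 with median centring (adjusted p = 0.0352), 0.91 with no normalization (adjusted p = 0.0408), 0.85 with dim genes left out (adjusted p = 0.0439), 1.02 with the mean of all probe sets (adjusted p = 0.0251), and in 5 fits that leave out 1 array. It was not called without the 2 arrays that stand apart, which read 3079 and 4691. With those arrays left out, Col4a1 was instead called from day 15 to tumors, as a rise of 0.63 (adjusted p = 0.0185). In tumors Col4a1 was called at 0.95 in KO with array weights (adjusted p = 0.00379), at 0.73 in KO without the 2 day 15 arrays that stand apart (adjusted p = 0.0456), and at 0.60 in WT with only the groups compared (adjusted p = 0.0435). Col4a2 gave 0.74 ± 0.34 from day 7 to day 15 (adjusted p = 0.10) and 0.71 ± 0.44 and 0.42 ± 0.44 in KO and WT tumors (adjusted p = 0.294 and 0.547). Col15a1, a multiplexin of vessel and muscle basement membranes, gave 0.63 ± 0.24 from day 7 to day 15 (adjusted p = 0.0531), and was called with the replicate block (adjusted p = 0.0326), which moved the count of called members there to 12. Array weights (0.44, adjusted p = 0.0384), median centring (0.70, adjusted p = 0.0385), dim genes left out (0.63, adjusted p = 0.0428) and no normalization (0.71, adjusted p = 0.0466) also called Col15a1. Several fits that leave out 1 array did as well. The dim Col4a4 fell by 0.34 ± 0.11 in WT tumors (adjusted p = 0.0314), and this call was lost without WT untreated replicate 1 (-0.23, adjusted p = 0.172), without WT untreated replicate 2 or without WT tumor replicate 5 (-0.30 each, adjusted p = 0.0992 and 0.0707). Its second probe set gave -0.09 ± 0.08 there (adjusted p = 0.448).

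**Figure D4:**
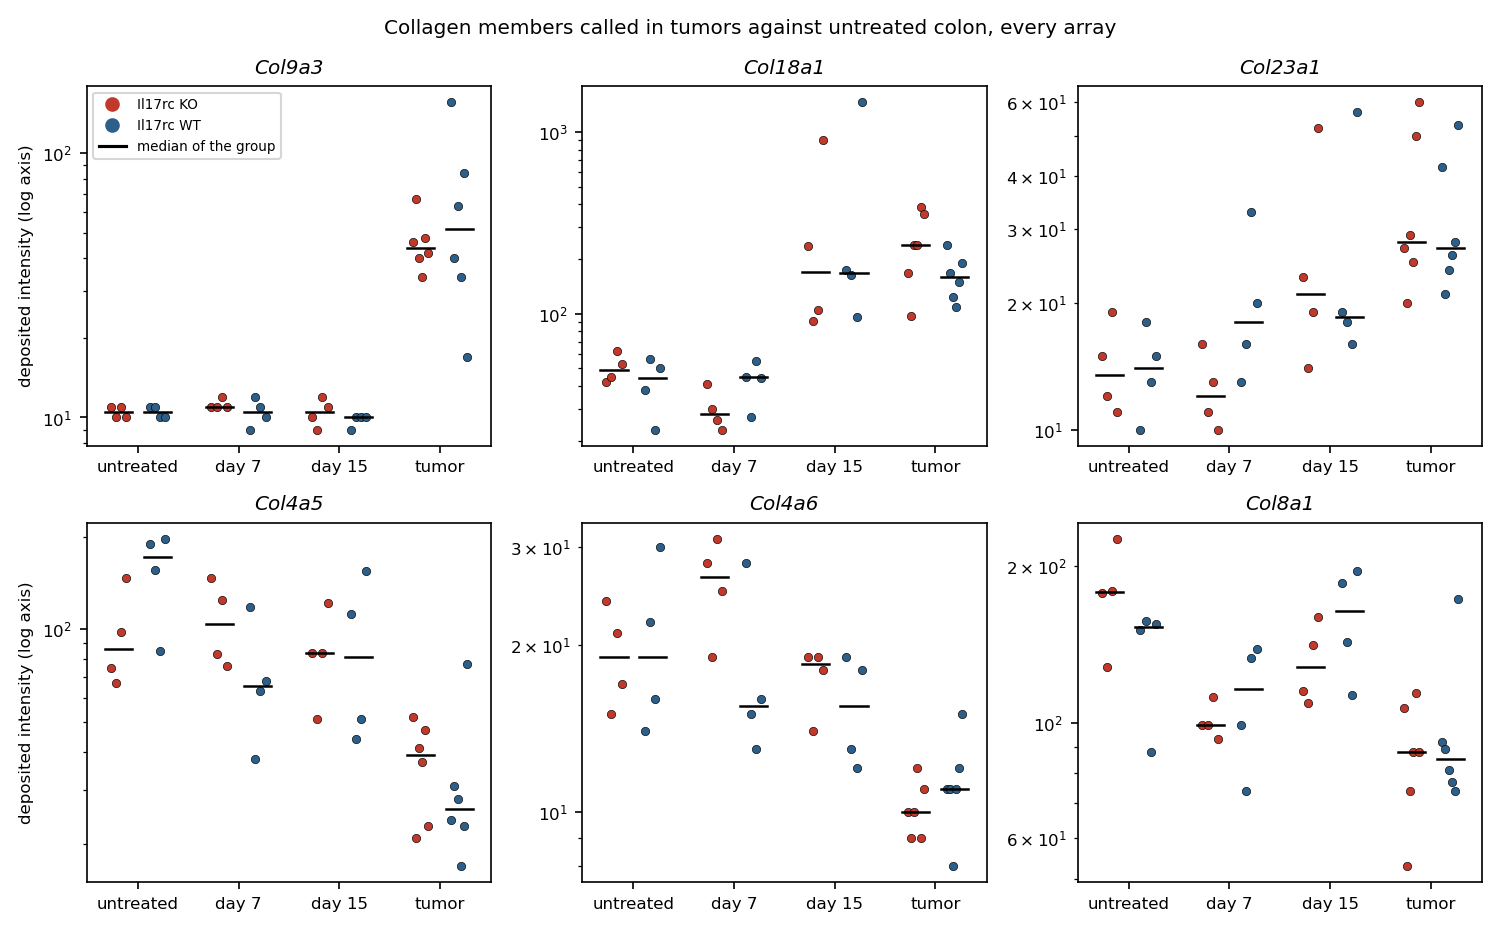
Deposited intensity, on every array, of 6 collagen genes that were each called in tumors against untreated colon in at least 1 genotype (log axis), KO in red left of WT in blue at each stage, with the group median as a line. Col9a3 is at 9 to 12 on every array outside the tumors, and Col4a5 and Col4a6 have their lowest medians in tumors.

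Type VI collagen forms beaded filaments that tie cells to the matrix, and its 3 classical chains were not called in tumors. Col6a1 ranged from 72 to 405 with a median of 282.0 in KO tumors, against 306, 272, 455 and 372 in untreated KO colon, and from 150 to 500 with a median of 220.0 in WT tumors, against 700, 409, 243 and 404 in untreated WT colon. Col6a2 had medians of 498.5 and 395.0 in KO and WT tumors against 473.0 and 562.0 in untreated KO and WT colon, and Col6a3 had 960.0 and 589.5 against 866.0 and 924.5. All these groups overlapped, and no tumor difference passed (adjusted p between 0.204 and 0.922). The lowest KO tumor array was replicate 2 for all 3 chains, at 72, 111 and 282.

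From day 15 to tumors Col6a1 fell by 0.77 ± 0.30 (adjusted p = 0.0462), and the call was lost in 20 of 36 fits that leave out 1 array, the value being -0.55 without replicate 4 of WT day 15 (adjusted p = 0.157) and -0.59 without replicate 4 of KO day 15 (adjusted p = 0.14). Col6a4, a further chain of the family, behaved more evenly over the arrays on its brighter probe set. It had 48, 26, 25 and 41 at KO day 15 against 23, 13, 16 and 17 at KO day 7, and 26, 26, 41 and 50 at WT day 15 against 18, 13, 19 and 17 at WT day 7. The groups did not overlap in either genotype, and the rise was 0.88 ± 0.18 (adjusted p = 0.000504), or 0.81 without the 2 arrays that stand apart (adjusted p = 0.0032). Its call in KO tumors (0.65 ± 0.23, adjusted p = 0.045) was lost without KO untreated replicate 1 (0.56, adjusted p = 0.147) and under 9 other such fits. A second probe set of Col6a4, at a mean of 9.2, was not called. It gave 0.06 ± 0.07 from day 7 to day 15 and -0.09 ± 0.09 in KO tumors (adjusted p = 0.566 and 0.608).

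Col7a1 and Col17a1 fasten squamous epithelium to its basement membrane, as the anchoring fibril collagen and as a transmembrane collagen of hemidesmosomes. Col17a1 (chr19:47646341-47692042) had 9 to 16 with a median of 11 in WT tumors, against 659, 11, 9 and 266 in untreated WT colon, and 9 to 51 with a median of 12 in KO tumors, against 8, 11, 9 and 11 in untreated KO colon. It had 857, 70, 10 and 12 on the arrays labelled KO day 7 and 38, 10, 12 and 19 at WT day 7. The high values were single arrays: Col17a1 was 19 to 857 in the 7 arrays with Krt5 above 100 and 8 to 28 in the other 29. The fall in WT tumors (-2.48 ± 0.90, adjusted p = 0.0453) became 0.14 without those 7 arrays (adjusted p = 0.743), and -1.38 without WT untreated replicate 1 alone (adjusted p = 0.289). The difference of KO minus WT in the change at day 7 was 4.23 ± 1.40 (adjusted p = 0.109).

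Col7a1 was 148, 14, 12 and 42 in untreated WT colon and 14, 15, 12 and 136 at WT day 15, and 11 to 42 on every KO array. The arrays at 148 and 42 in untreated WT colon were the 2 with Krt5 above 100, while the array at 136 had a Krt5 of 21. None of the 15 comparisons called Col7a1. Its fall in WT tumors against untreated WT colon was called at -1.48 without WT untreated replicate 3 (adjusted p = 0.0413). Without replicate 4 of both day 15 groups it was called at -1.04 (adjusted p = 0.0457).

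**Figure D5:**
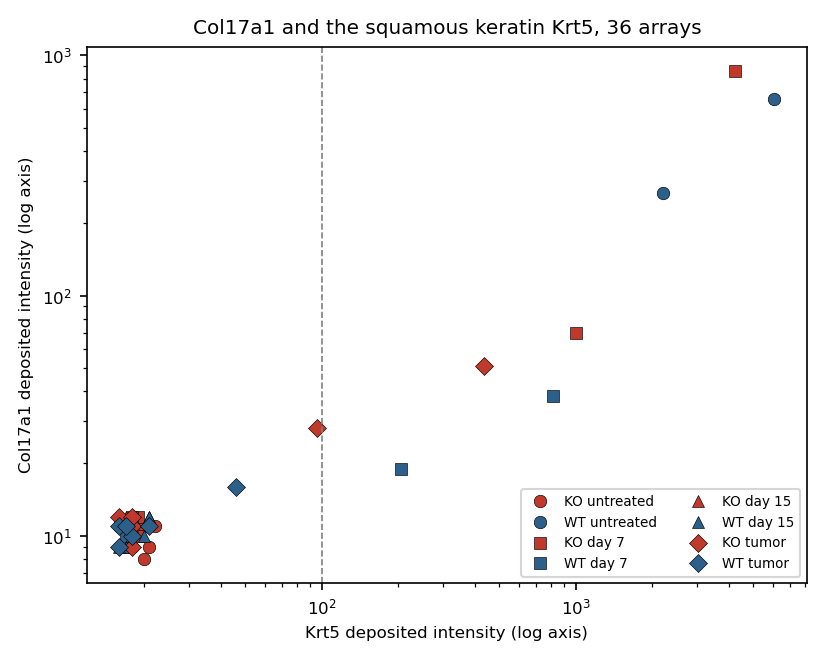
Each point is 1 of the 36 arrays, with the deposited intensity of the squamous keratin Krt5 on the horizontal axis and of Col17a1 on the vertical axis (both log); the dashed line is the Krt5 value of 100. Red is KO and blue is WT, and shapes are stages. Col17a1 is 19 to 857 right of the line and 8 to 28 left of it.

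Col8a1 (chr16:57624256-57754737), a short-chain collagen of vessel walls, ranged from 53 to 114 with a median of 88.0 in KO tumors, against 178, 128, 179 and 226 in untreated KO colon, and every tumor array was lower. It fell by 1.05 ± 0.22 (adjusted p = 0.000724), and a second probe set gave -1.16 ± 0.23 (adjusted p = 0.000445), while the third, at a mean of 10.6, gave -0.06. WT tumors had 74 to 173 with a median of 85.0 against 151, 157, 88 and 155 in untreated WT colon, overlapped, and missed the threshold (-0.53 ± 0.22, adjusted p = 0.0803). That WT fall was called without WT tumor replicate 6 (-0.71, adjusted p = 0.00855) or WT untreated replicate 3 (-0.71, adjusted p = 0.0296). Array weights (-0.61, adjusted p = 0.0203) and the replicate block (-0.68, adjusted p = 0.0226) called it too. KO day 7 had 99, 99, 112 and 93, again below every untreated KO array (-0.71 ± 0.24, adjusted p = 0.0501). Several alternatives called that KO day 7 fall, among them dim genes left out (-0.71, adjusted p = 0.0345) and array weights (-0.66, adjusted p = 0.00677). Leaving out KO day 7 replicates 1 and 2 did not. From day 15 to tumors Col8a1 fell by 0.66 ± 0.16 (adjusted p = 0.00152). The dim Col8a2 fell by 0.51 ± 0.14 in WT tumors (adjusted p = 0.00864), a call lost without WT untreated replicate 2 (-0.40, adjusted p = 0.0589).

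Col9a3 gave the strongest tumor call of the family. It encodes a chain of type IX collagen, known from cartilage, where this FACIT collagen coats type II fibrils. Col9a3 (chr2:180598102-180622192) had 46, 67, 40, 34, 48 and 42 in KO tumors, against 11, 10, 11 and 10 in untreated KO colon. In WT tumors it had 156, 40, 63, 34, 84 and 17, against 11, 11, 10 and 10 in untreated WT colon. All 24 arrays of untreated colon, day 7 and day 15 lay between 9 and 12, so all 12 tumor arrays were above them. The rise was 1.98 ± 0.29 in KO (3.96-fold, adjusted p = 1.02e-05), 2.20 ± 0.29 in WT (4.60-fold, adjusted p = 2.02e-06), and 2.14 ± 0.21 from day 15 to tumors (adjusted p = 2.79e-09). Since the other stages are near background, these folds rest on the floor of the array as well as on the tumor level. A second probe set rose by 1.65 ± 0.23 in KO tumors (adjusted p = 5.86e-06) and by 1.75 ± 0.23 in WT tumors (adjusted p = 2.26e-06).

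Col9a1, another type IX chain, had 17 to 27 in KO tumors, against 15, 14, 15 and 14 in untreated KO colon, and 15 to 29 in WT tumors, against 17, 13, 14 and 14 in untreated WT colon. It was called at 0.42 ± 0.13 in KO (adjusted p = 0.0187) and at 0.38 ± 0.13 in WT (adjusted p = 0.032), the KO call being lost when KO untreated replicate 4 was left out (0.40, adjusted p = 0.052), or replicate 2 (adjusted p = 0.0501), and the WT call without WT tumor replicate 1 (0.27, adjusted p = 0.10) and 4 other single arrays. A second probe set of Col9a1, at a mean of 10.9, gave -0.03 ± 0.09 in KO tumors and 0.10 ± 0.09 in WT tumors (adjusted p = 0.901 and 0.499). From day 15 to tumors Col9a1 rose by 0.35 ± 0.09 on its brighter probe set (adjusted p = 0.00452 over all probe sets). The dimmer probe set gave 0.14 ± 0.07 there (adjusted p = 0.132). The type IX chain Col9a2 stayed between 7 and 12 on all arrays and was not called.

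Col14a1 (chr15:55307644-55520803), a FACIT collagen of type I fibrils in soft tissue, fell at KO day 7 against untreated KO colon and rose at day 15 against day 7. On the arrays labelled KO day 7 it had 38, 30, 46 and 39, against 128, 111, 131 and 148 in untreated KO colon, with no overlap (-1.68 ± 0.52, adjusted p = 0.0313). This was its genotype's single call at day 7, and the adjusted p was 0.0542 to 0.0899 in 7 of 36 fits that leave out 1 array, and 0.152 without replicates 1 and 2 (-1.55). WT day 7 had 38, 20, 102 and 62 against 126, 240, 53 and 125 in untreated WT colon and overlapped (-1.20 ± 0.52, adjusted p = 0.328). At day 15 it had 161, 100, 139 and 126 in KO and 193, 190, 30 and 179 in WT, and the rise from day 7 was 1.41 ± 0.37 (adjusted p = 0.00456), or 1.36 without the 2 arrays that stand apart (adjusted p = 0.0155). Tumors had medians of 57.0 (22 to 158) in KO and 58.0 (44 to 199) in WT, and neither was called against untreated colon (-1.07 ± 0.48 in KO and -0.78 ± 0.48 in WT, adjusted p = 0.119 and 0.26), the KO value being called without KO tumor replicate 1 (-1.32, adjusted p = 0.0476) and with array weights (-0.94, adjusted p = 0.0466). The fall from day 15 to tumors, by 0.89 ± 0.34 (adjusted p = 0.0416), was lost in 14 of 36 such fits (value -0.77 without WT day 15 replicate 2, adjusted p = 0.0938). The dim Col20a1 fell by 0.21 ± 0.07 from day 15 to tumors (adjusted p = 0.0251), and gave -0.14 without WT day 15 replicate 4 (adjusted p = 0.0999). Col16a1 was called in none of the 15 comparisons. Without the 2 arrays that stand apart it was called from day 7 to day 15 (-0.54, adjusted p = 0.00961) and from day 15 to tumors (0.58, adjusted p = 0.00185). That fit also called it at KO day 7 against untreated KO colon (0.60, adjusted p = 0.0377). Array weights called the same changes, at -0.42, 0.46 and 0.68 (adjusted p = 0.0279, 0.0164 and 0.00674), and KO against WT at day 7 (0.55, adjusted p = 0.0207).

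Col23a1, a transmembrane collagen, ranged from 20 to 60 with a median of 28 in KO tumors, against 15, 12, 19 and 11 in untreated KO colon, and from 21 to 53 with a median of 27 in WT tumors, against 10, 18, 13 and 15 in untreated WT colon. All tumor arrays lay above the untreated arrays of their genotype. It rose by 1.15 ± 0.33 in KO (adjusted p = 0.0114) and by 1.10 ± 0.33 in WT (adjusted p = 0.0142), the WT call being lost without WT untreated replicate 1 (0.94, adjusted p = 0.0583), without the arrays of Krt5 above 100 (0.95, adjusted p = 0.133), and with the title letter (0.97, adjusted p = 0.0615) or title number (0.99, adjusted p = 0.0682) as a block. With the replicate number as a block neither was called, at 0.77 in KO and 0.94 in WT (adjusted p = 0.137 and 0.0763). Of its 2 other probe sets, 1 gave 0.37 ± 0.17 in KO (adjusted p = 0.139) and 0.49 ± 0.17 in WT (adjusted p = 0.0391), and the other 0.50 ± 0.17 in KO (adjusted p = 0.0411) and 0.39 ± 0.17 in WT (adjusted p = 0.112). In addition, 1 array of each day 15 group reached the tumor range (52 in KO and 57 in WT), both of them the arrays that stand apart.

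No collagen was called between the arrays labelled KO and those labelled WT at any stage. The day 7 comparison includes the 2 arrays labelled KO whose Il17rc was 331 and 44, and it also gave 0 without them. KO against WT gave 0 called members in untreated colon (2.28% of all genes were called), at day 7 (0.298%), at day 15 (0.222%) and in tumors (0.0526%). At an unadjusted p under 0.05 limma gave 2, 4, 1 and 1 members in these comparisons, beside 2185, 1965, 1721 and 423 of all 17097 genes. The difference between genotypes in the change from untreated was called for 0 members at day 7 (2.37% of all genes), day 15 (0.0819%) and in tumors (0.784%), with 4, 1 and 1 at an unadjusted p under 0.05, beside 2647, 1298 and 1410 of all genes. In tumors, KO minus WT was -0.21 ± 0.26 for Col9a3, 0.52 ± 0.47 for Col18a1, 0.23 ± 0.32 for Col4a5 and 0.13 ± 0.26 for Col3a1. The groups overlapped for each of these genes, and with standard errors of this size a p that misses the threshold does not show equal levels. Col17a1 in untreated colon (-2.67 ± 0.99, adjusted p = 0.196) was called at -3.60 without WT untreated replicate 3 (adjusted p = 0.046). At day 7, Col4a6 (0.54 ± 0.21, adjusted p = 0.292) was called at 0.78 without WT day 7 replicate 1 (adjusted p = 0.0307). Col4a6 was also called at 0.96 without the arrays of Krt5 above 100 (adjusted p = 0.0252) and at 0.55 with array weights (adjusted p = 0.00944). Array weights called further members at day 7, in both directions, among them Col22a1 (-0.43, adjusted p = 0.00108) and Col16a1 (0.55, adjusted p = 0.0207).

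Genes of 6 lists around collagen were counted in the same way, against the 20.8% of all genes called in KO tumors, 22.8% in WT tumors and 28.2% at day 15 against day 7. A list's count near those shares is no result about the list, and no list was tested as such. The median log2 difference over all genes was 0.01, 0.02 and -0.03 in these comparisons. Of 19 folding and modification genes, 3 rose and 1 fell in KO tumors and 4 rose and 2 fell in WT tumors: P4hb, the shared subunit of prolyl hydroxylase, rose by 0.41 ± 0.09 and 0.51 ± 0.09 in KO and WT (adjusted p = 0.00109 and 0.000101), and Colgalt1, which glycosylates hydroxylysine, by 0.56 ± 0.13 and 0.67 ± 0.13 (adjusted p = 0.00161 and 0.000226). Creb3l1, a transcription factor of the secretory pathway, fell by 1.53 ± 0.30 in KO tumors (adjusted p = 0.00034). With genotypes averaged it fell by 1.17 ± 0.21 from day 15 to tumors (adjusted p = 6.89e-05). The 2 genes that fell in WT tumors are not named, since the 4 of smallest p there all rose. From day 7 to day 15, 6 of the 19 rose and 0 fell, among them the lysyl hydroxylase genes Plod3 and Plod1. The called shares of this list, 4 and 6 of 19 in KO and WT tumors and 6 of 19 at day 15, lie near those of all genes, and its median was 0.27, -0.02 and 0.16.

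Of 20 processing, crosslinking and fibril assembly genes, 7 rose and 1 fell from day 7 to day 15. Lox, the lysyl oxidase that crosslinks fibrils, rose by 2.48 ± 0.53 (adjusted p = 0.000728), and its relatives Loxl2 and Loxl3 by 1.19 ± 0.33 and 0.65 ± 0.16 (adjusted p = 0.00684 and 0.00303). In tumors 2 rose and 1 fell in KO and 0 rose and 3 fell in WT, 3 of 20 in each genotype and below the share of all genes. The list's median was 0.05 in KO tumors, -0.01 in WT tumors and 0.53 at day 15 against day 7. Tnxb, the matrix protein tenascin X, fell by 1.82 ± 0.46 in KO tumors and by 2.13 ± 0.46 in WT tumors (adjusted p = 0.00388 and 0.000906). Thbs2, a thrombospondin that affects fibril form, rose by 2.32 ± 0.43 in KO tumors (adjusted p = 0.00018), against a fall of 1.52 ± 0.33 from day 7 to day 15 (adjusted p = 0.000902).

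Of 12 collagen-degrading enzymes and inhibitors, 7 rose and 1 fell from day 7 to day 15, and 5 rose in KO tumors and 4 in WT tumors, with a median of 0.99 in KO tumors, 0.30 in WT tumors and 1.01 at day 15 against day 7. Mmp13, a collagenase, rose by 4.22 ± 0.66 in KO tumors and by 4.08 ± 0.66 in WT tumors (adjusted p = 2.37e-05 and 3.35e-05), and its inhibitor Timp1 by 2.73 ± 0.63 and 2.69 ± 0.63 (adjusted p = 0.00181 and 0.00202). Of 11 receptors, 3 rose from day 7 to day 15, among them the uptake receptors Mrc1 and Mrc2, 1 rose in KO tumors, and 2 rose and 1 fell in WT tumors, counts near or below the shares of all genes, with medians of 0.13 at day 15, 0.14 in KO tumors and -0.01 in WT tumors. The integrin subunit Itga2 rose by 0.48 ± 0.15 in KO and 0.75 ± 0.15 in WT tumors (adjusted p = 0.0236 and 0.000567), and Ddr2, a tyrosine kinase receptor for fibrillar collagen, fell by 1.29 ± 0.46 in WT tumors (adjusted p = 0.0378).

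Of 12 basement membrane partners, 2 rose in KO tumors, and 2 rose and 2 fell in WT tumors. The laminin chain genes Lama3 and Lama1 rose in both, Lama3 by 1.40 ± 0.34 in KO and 0.93 ± 0.34 in WT (adjusted p = 0.00316 and 0.0477), while Hspg2, which encodes perlecan, fell by 0.83 ± 0.30 in WT (adjusted p = 0.0459). From day 7 to day 15, 5 rose and 2 fell, with Lamb1 rising by 1.58 ± 0.30 (adjusted p = 0.000204). The median of these partners was 0.32 in KO tumors, 0.03 in WT tumors and 0.55 at day 15 against day 7, and 2 of 12 called in KO tumors is below the share of all genes. Of 14 transforming growth factor beta (TGF-beta) pathway genes, 4 rose and 1 fell in KO tumors, 3 rose and 1 fell in WT tumors, and 3 rose and 2 fell from day 7 to day 15, with medians of 0.30, 0.08 and 0. Tgfbr2, the type 2 receptor, rose by 0.81 ± 0.21 in KO and by 0.94 ± 0.21 in WT tumors (adjusted p = 0.00509 and 0.00135). In none of the 6 lists was a gene called between KO and WT at any stage.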

How the data were processed

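Expression was read from the authors' deposited intensity table of 45037 probe sets on a linear scale, with values from 4 to 14185. How the authors scanned, background-corrected or summarized the arrays is not given in the sources used here, and the number of arrays limits the precision. Per the platform annotation 28898 probe sets had 1 gene symbol, 551 several and 15588 none. Intensities were taken as log2(intensity + 1) and quantile normalized over all probe sets. Each of 17097 genes kept its probe set of highest mean, and 8 group means over 36 arrays were fitted with limma 3.58.1 in R 4.3.3 with an intensity trend. Benjamini-Hochberg adjustment ran over all genes in each of 15 comparisons at 0.05, and the procedure was tested on simulated data.

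Array values were given for members called with groups that do not overlap and for a fixed set of major chains; genes of other lists were named when called, at most 4 per list and comparison. The members and lists were chosen with earlier results of these data known. The labels state no pairing. Same-numbered arrays deviated together (every correlation over 0.1) only between KO and WT at day 15 (0.174 to 0.801) and between WT day 7 and WT untreated (0.164 to 0.398), and blocking on the number changed no collagen call there. The comparisons that average KO and WT at day 15 treat these arrays as independent, so their standard errors leave the shared deviation out. Blocking on the number raised the count of called members in both of them. Alternatives were a pseudocount of 16, other scalings, dim genes left out, the mean of all probe sets, no trend, array weights, only the groups compared, blocks on replicate number and on the letter or number in the titles, and leaving out single arrays, arrays with high Krt5, or KO day 7 replicates 1 and 2. Leaving out replicate 4 of both day 15 groups was chosen after seeing the data.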

Additional observations from a re-analysis of the deposited data

Results flagged for a closer look

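In 192 gene-by-group sets of arrays for the 24 brighter members, 24 (12.5%) held 1 array set off from the others by Dixon's test at its 95% critical value, where chance gives about 1 in 20. KO tumor replicate 2 was set off low for 7 members: Col1a1 at 25, Col3a1 at 1598, Col5a1 at 180, Col5a2 at 288, Col6a1 at 72, Col6a2 at 111 and Col6a3 at 282. That array also had the lowest smooth muscle marker sum of its group, 2045, a fibroblast sum of 1610 and a Krt5 of 436, and the part of these in its collagen levels was not tested.

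WT day 15 replicate 4 was set off high for Col5a3 at 178, Col7a1 at 136, Col23a1 at 57 and Col27a1 at 130. KO day 15 replicate 4 was set off high for Col7a1 at 31 and Col27a1 at 85. The arrays labelled KO day 7 included replicate 1, set off for Col7a1 at 42 (high) and Col27a1 at 19 (low), which is 1 of the 2 whose Il17rc went against the label.

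WT tumor replicate 6 was set off high for Col8a1 at 173 and Col14a1 at 199, and WT untreated replicate 3 low for Col3a1 at 2590 and Col8a1 at 88. Single values were set off for Col1a1 at 40 in WT day 7 replicate 3, Col7a1 at 12 in KO tumor replicate 4, Col9a3 at 9 in WT day 15 replicate 1, Col14a1 at 30 in WT day 15 replicate 3 and Col17a1 at 16 in WT tumor replicate 4. Several of these lie near background, where 1 intensity unit can set an array apart.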

How the results depend on the processing

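Of 37 called collagen values, 18 kept direction and call under every setting run (up to 50), and 19 lost the call in at least 1, 15 of them in at least 1 fit that leaves out an array. The 18 were Col4a5, Col4a6, Col8a1, Col9a3 and Col18a1 in KO tumors, Col4a5 and Col9a3 in WT tumors, Col1a1, Col3a1, Col5a2, Col6a4, Col14a1 and Col18a1 at day 15 against day 7, and Col4a5, Col4a6, Col8a1, Col9a1 and Col9a3 in tumors against day 15. Col17a1 in WT tumors turned to 0.14 (adjusted p = 0.743) once arrays of Krt5 above 100 were left out. The count of called members in KO at day 7 (1) was 2 with a pseudocount of 16, 3 with median centring, 2 with no normalization, 2 with dim genes left out, 2 with the mean of all probe sets, 2 with no trend, 6 with array weights, 6 with only the groups compared, 2 with the title letter as a block, 0 with the title number as a block, 0 without KO day 7 replicates 1 and 2, and 4 without replicate 4 of both day 15 groups. With array weights it was 3 for WT day 7 (0), 3 for WT day 15 (1), 1 for KO day 15 (0), 14 for KO tumors (8), 8 for KO against WT at day 7 (0) and 1 for the genotype difference in the day 7 change (0). With only the groups compared it was 0 for WT day 15 and 5 for tumors against day 15 (9). With the title letter as a block it was 0 for WT day 15 and 3 for WT tumors (9), and Col18a1 was lost in both (adjusted p = 0.172 and 0.094). Col18a1 at WT day 15 was also lost with only the groups compared (adjusted p = 0.147) and without the high-Krt5 arrays (adjusted p = 0.0565). Those arrays left out, 1 member was called for KO against WT at day 7. With the replicate block it was 14 for tumors against day 15 and 1 for the genotype difference in the day 7 change, where Col17a1 was called at 4.23 (adjusted p = 0.033); the block ended the calls of Col6a4 and Col23a1 in KO tumors (adjusted p = 0.0907 and 0.137) and of Col4a4, Col17a1 and Col23a1 in WT tumors (adjusted p = 0.0907, 0.0624 and 0.0763). Leaving out 1 array at a time gave 1 to 2 for WT day 15, 6 to 10 for WT tumors, 0 to 3 for KO day 7, 0 to 1 for KO day 15, 6 to 9 for KO tumors, 0 to 1 for KO against WT in untreated colon and at day 7, 0 to 2 for the genotype difference in the day 7 change, 7 to 14 for day 15 against day 7 and 6 to 14 for tumors against day 15, the 14 arising without WT day 15 replicate 3 in both and without KO day 15 replicate 2 in the last. The causes were not tested. Members near background, 18 of 42, could show little change on this array.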
